A study of Homo sapiens with 6 samples.

Results

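The immediate early response genes examined here are a set of 10: IER2, IER3, KLF6, JUN, FOS, EGR1, ATF3, MYC, MCL1 and NAB2. All 10 are among the 19987 protein-coding genes that lie on chromosomes with peaks. The data are ChIP-seq peak lists from HepG2 cells, an established human liver cancer line, in which TAF2 carries a V5 tag. The series title calls the line a clone, so every library describes 1 clone, and the labels give no stimulation, dose or time. The group with data is the V5 immunoprecipitation, with 3 libraries, called replicates 1, 2 and 3. The group it would be set against is a control with 3 libraries, called input in the treatment label and IgG in the library names. It comes without peak lists and entered no comparison. No background from control samples therefore stands beside the values. A gene was counted in a library when a peak lay over its annotated GRCh38 span or within 1000 bp of it, and 19 of the 6043 peaks met this rule. There were 1599, 2557 and 1887 peaks in replicates 1, 2 and 3, with no read totals, so depth is unknown. Separate cultures are not named in the labels, so the spread between libraries may be technical.

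Immediate early genes are switched on within minutes of a stimulus such as a growth factor or stress, from transcription factors that the cell already holds, without new protein synthesis. Many of their products are transcription factors, and others act as feedback that ends the response. In liver, JUN, FOS, EGR1, ATF3 and MYC are known for their rapid induction after partial hepatectomy and injury. TAF2 belongs to TFIID, the complex that recognises core promoters and helps to place RNA polymerase II there, and together with TAF1 it contacts the initiator element around the transcription start.

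The 4 stretches shown here are promoter DNA of genes described below, from the RefSeq promoter table for GRCh38.p14. Each is the 250 bases that end just before an annotated start, read 5′ to 3′ on the gene's strand. NAB2 (chr12:57088864-57089113, plus strand) and KLF6 (chr10:3785210-3785459, minus strand) are members with peaks that reach these bases. At KLF6 this held in all 3 libraries, and at NAB2 in replicates 2 and 3. The NAB2 summits lay 480, 488 and 507 bases before the start, outside its stretch. IER3-AS1 (chr6:30742713-30742962, plus strand) is the antisense RNA gene beside which the IER3 peaks had their summits. EGR1 (chr5:138465229-138465478, plus strand) is shown as a classic immediate early promoter that no peak reached. Capitals mark matches, on either strand, to the motifs named after the sequences.
NAB2: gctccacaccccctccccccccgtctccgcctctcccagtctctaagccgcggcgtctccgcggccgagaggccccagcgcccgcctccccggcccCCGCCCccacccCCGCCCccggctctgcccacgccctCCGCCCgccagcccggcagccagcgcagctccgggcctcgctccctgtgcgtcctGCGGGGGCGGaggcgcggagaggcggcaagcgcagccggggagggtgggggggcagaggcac
KLF6: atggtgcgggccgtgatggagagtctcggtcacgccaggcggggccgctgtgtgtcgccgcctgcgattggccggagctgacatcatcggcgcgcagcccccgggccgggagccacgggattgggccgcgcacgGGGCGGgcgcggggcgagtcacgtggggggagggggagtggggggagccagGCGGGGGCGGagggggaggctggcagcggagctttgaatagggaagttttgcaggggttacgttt
IER3-AS1: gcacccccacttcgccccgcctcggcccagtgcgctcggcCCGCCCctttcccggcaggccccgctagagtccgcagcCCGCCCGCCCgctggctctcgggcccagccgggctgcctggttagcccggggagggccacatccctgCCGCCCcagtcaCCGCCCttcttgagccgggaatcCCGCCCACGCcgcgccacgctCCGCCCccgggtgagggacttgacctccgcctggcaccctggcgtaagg
EGR1: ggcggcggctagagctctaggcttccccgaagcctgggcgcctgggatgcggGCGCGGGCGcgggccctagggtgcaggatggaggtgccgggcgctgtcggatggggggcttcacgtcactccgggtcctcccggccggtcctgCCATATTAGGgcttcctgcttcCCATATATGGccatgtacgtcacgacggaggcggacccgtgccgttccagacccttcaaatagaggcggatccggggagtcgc
The motifs searched were TATAAA (recognised by the TBP subunit of TFIID), the CArG box (bound by serum response factor), TGACGTCA (the cyclic AMP response element), TGANTCA (an AP-1 site), GGGCGG (the GC box of Sp1) and GCGNGGGCG (the core of an EGR site). The last 2 can overlap each other and do so in the capitals of NAB2, KLF6 and IER3-AS1. The table held 8 start windows for 7 members and none for IER3, MCL1 and MYC. GGGCGG was present in 6 of the 8 windows, against 53.7% of the 22156 windows of protein-coding genes in the table, which serve for each motif here. GCGNGGGCG was present in 3 of the 8, at NAB2, KLF6 and EGR1, against 10.9% of those windows. At NAB2 that match lay 62 to 54 bases before the start, and at KLF6 it lay 65 to 57 bases before it. TATAAA was present in 2 of the 8, at FOS and at the later of the ATF3 starts, against 9% of those windows. It lay 33 to 28 bases before the FOS start, but 230 to 225 bases before that ATF3 start. The CArG box was present in 1 of the 8, at EGR1, where it occurred 2 times, against 1.18% of those windows. TGACGTCA and TGANTCA were in 0 of the 8, against 2.01% and 5.36% of those windows. These matches describe letters in the windows and not binding.

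NAB2, KLF6, IER3 and MCL1 had a peak in all 3 libraries, IER2, ATF3 and MYC had a peak in replicate 3 alone, and JUN, FOS and EGR1 had none. Among the 10 genes, 4 had a peak in replicate 1, 4 in replicate 2 and 7 in replicate 3, against 3.7%, 5.75% and 4.87% of all protein-coding genes. A peak in at least 2 libraries was found at 4 of 10 genes against 3.76% of all genes, in all 3 libraries at 4 of 10 against 1.9%, and in any library at 7 of 10 against 8.67%. Of the 7, 3 thus rested on replicate 3, against 1.7% of all genes with a peak in that library alone. Without that library the count for any library was 4, and no matching share of all genes was computed. The genes of the set are short, with a median span of 4777 bp against 24140 bp for all protein-coding genes. For the 9 genes with spans of at most 10000 bp, all but ATF3, 4 had peaks in at least 2 libraries, against 1.85% of the 5671 protein-coding genes of that span. Within 1000 bp of an annotated end, 3 of 10 genes had peaks in at least 2 libraries, against 1.37% of all genes. With the flanks left off, so that a peak had to overlap the span, MCL1 alone had peaks in at least 2 libraries (1 of 10, against 3.25% of all genes). The genes were chosen with earlier results of these lists known, so these shares are descriptions and were not tested. As a check of the cell type, 9 of 15 hepatocyte genes had a peak in at least 2 libraries, among them APOA2, APOB and HNF4A. Of 5 genes of blood, muscle and neurons 0 had one in any library, a count too small to set apart from the 8.67% of all genes.

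**Figure D1:**
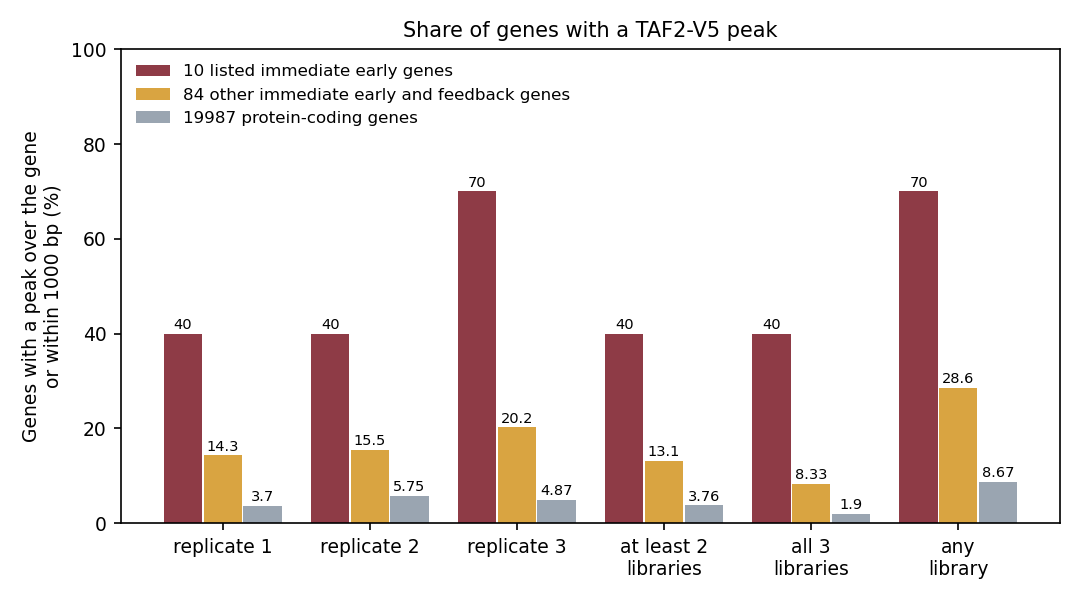
Percent of genes (vertical axis) with a TAF2-V5 peak over the gene or within 1000 bp, for the 10 listed immediate early genes, 84 other immediate early and feedback genes and all 19987 protein-coding genes, in each library and under 3 rules that combine libraries. The bars of the 10 genes stand at 40% in replicates 1 and 2 and at 70% in replicate 3.

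The strength of a peak is given as the authors' fold over the background of their caller, and as its rank percentile by that fold within its own list, where 100 is the strongest peak. Folds at the 10 genes ran from 3.34 at KLF6 in replicate 3 to 16.1 at NAB2 in replicate 2. Of the 19 peaks, 7 ranked above the median of their list, and the median percentile was 43.5. NAB2 stood apart from the other members in each library, and most of the remaining peaks were of middle or low rank.

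**Figure D2:**
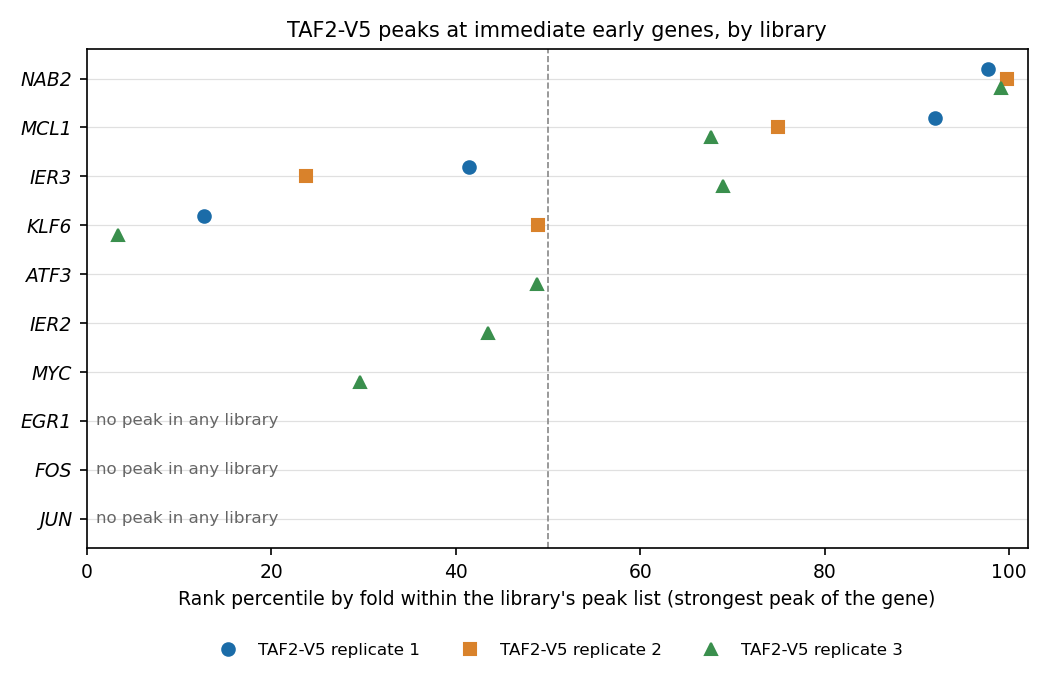
Rank percentile by fold within each library's list (horizontal axis) of the strongest peak at each of the 10 genes (rows), with a marker for each TAF2-V5 replicate and a dashed line at the list median. NAB2 lies at the right edge in all 3 libraries, KLF6 left of the median, and JUN, FOS and EGR1 have no marker.

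NAB2, a corepressor that binds EGR1 and limits its activity, had the strongest peaks of the set. The fold was 9.23, 16.1 and 11.1 in replicates 1, 2 and 3, and the −log10 q was 20.1, 40.9 and 26.7. These peaks ranked 37 of 1599, 7 of 2557 and 18 of 1887, at a mean percentile of 98.9 ± 1.04 (SD, n = 3). The 3 peaks covered chromosome 12, 57088521 to 57088824, 57088522 to 57089079 and 57088532 to 57089093, and shared 293 bp. Their summits fell within 27 bp of each other, 480, 488 and 507 bases before the start of NAB2. The peak of replicate 1 stopped 290 bases before that start, while those of replicates 2 and 3 reached to 35 and 21 bases before it, through the GC box and EGR motif matches shown above. The summits lay 7, 1 and 20 bp from the upper annotated end of NEMP1, a gene for a nuclear envelope membrane protein on the opposite strand, with 486 bp between the genes. The promoter table places a NEMP1 start 9836 bp inside that end, so the end is not the start it lists. The peak cannot be given to NAB2 or NEMP1 alone. No peak lay over the NAB2 span itself in any library.

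KLF6, a zinc finger transcription factor induced early after injury, had the lowest mean percentile among the members with a peak in all 3 libraries, at 21.7 ± 24.1 (SD, n = 3), although in replicate 2 its peak ranked above that of IER3. The fold was 3.85, 5.20 and 3.34 in replicates 1, 2 and 3, and the −log10 q was 2.21, 4.59 and 3.67. Only the peak of replicate 2 came near its list's median, at percentile 49.0, against 12.7 and 3.39 in replicates 1 and 3. All 3 peaks lay at the start of the gene, on chromosome 10 at 3785350 to 3785610, 3785246 to 3785510 and 3785154 to 3785458. Their summits spread over 334 bp, 290 and 170 bases before the start in replicates 1 and 2 and 44 bases after it in replicate 3. The 109 bp that they shared run from 249 to 141 bases before the start. The EGR and GC box matches near the start thus lay under the peaks of replicates 2 and 3 and not under that of replicate 1. No other annotated gene lay within 1000 bp of these peaks.

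IER3, which encodes a short-lived protein that modulates apoptosis and ERK signalling, had a broad peak beside its lower annotated end in each library. The peaks covered chromosome 6, 30742195 to 30742953, 30742241 to 30743060 and 30742081 to 30743018, and were 759, 820 and 938 bp wide, against list medians of 220, 224 and 224 bp. The fold was 4.75, 4.42 and 5.67 and the −log10 q was 8.79, 7.72 and 12.6 in replicates 1, 2 and 3. The mean percentile was 44.7 ± 22.8 by fold (SD, n = 3), and 80.9 when peaks were ranked by −log10 q. The summits lay within 56 bp of each other, 324, 278 and 334 bp below the IER3 span. This places them between divergent starts 275 bp apart, that of FLOT1, a membrane raft scaffold gene on the minus strand, and that of IER3-AS1. They lay 188, 234 and 178 bases before the FLOT1 start and 88, 42 and 98 bases before the IER3-AS1 start. The printed IER3-AS1 window holds the 3 summit positions, and GGGCGG matched at 7 places in it. All 3 peaks overlapped FLOT1 and none overlapped IER3, so they cannot be given to IER3 alone. No strand or start was listed for IER3. Its antisense gene lies on the plus strand, which would put IER3 on the minus strand with its start at the upper end. The 3 summits lay 1672, 1626 and 1682 bp from that end. At the upper end of the IER3 span replicate 2 alone had another peak (30744320 to 30744565), with a fold of 3.52 at percentile 3.97.

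MCL1, an antiapoptotic BCL2 family gene whose product turns over quickly, was the only member with peaks inside its span in all 3 libraries. On chromosome 1, 150577158 to 150577331 (174 bp) was covered in each library, about the middle of the gene. The peaks over it had folds of 3.85, 5.01 and 4.39 in replicates 1, 2 and 3, at percentiles 12.3, 43.4 and 25.7. The strongest MCL1 peaks lay outside this stretch and did not overlap each other. In replicate 1 this was an internal peak at 150577579 to 150578230 with a fold of 7.45 (percentile 92.0). It did overlap the weaker internal peaks of replicates 2 and 3, so 150577579 to 150577676 was also covered in each library. In replicate 2 it was a peak just above the upper end of the gene, at 150579704 to 150579900, with a fold of 6.30 (percentile 75.0), and it overlapped the noncoding RNA gene LOC107985203. In replicate 3 it was an internal peak at 150576112 to 150576314 with a fold of 5.61 (percentile 67.6). The mean percentile of the strongest peaks, 78.2 ± 12.5 (SD, n = 3), therefore describes 3 different positions. The gene table gives no exons, so internal peaks could not be placed in exons or introns.

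**Figure D3:**
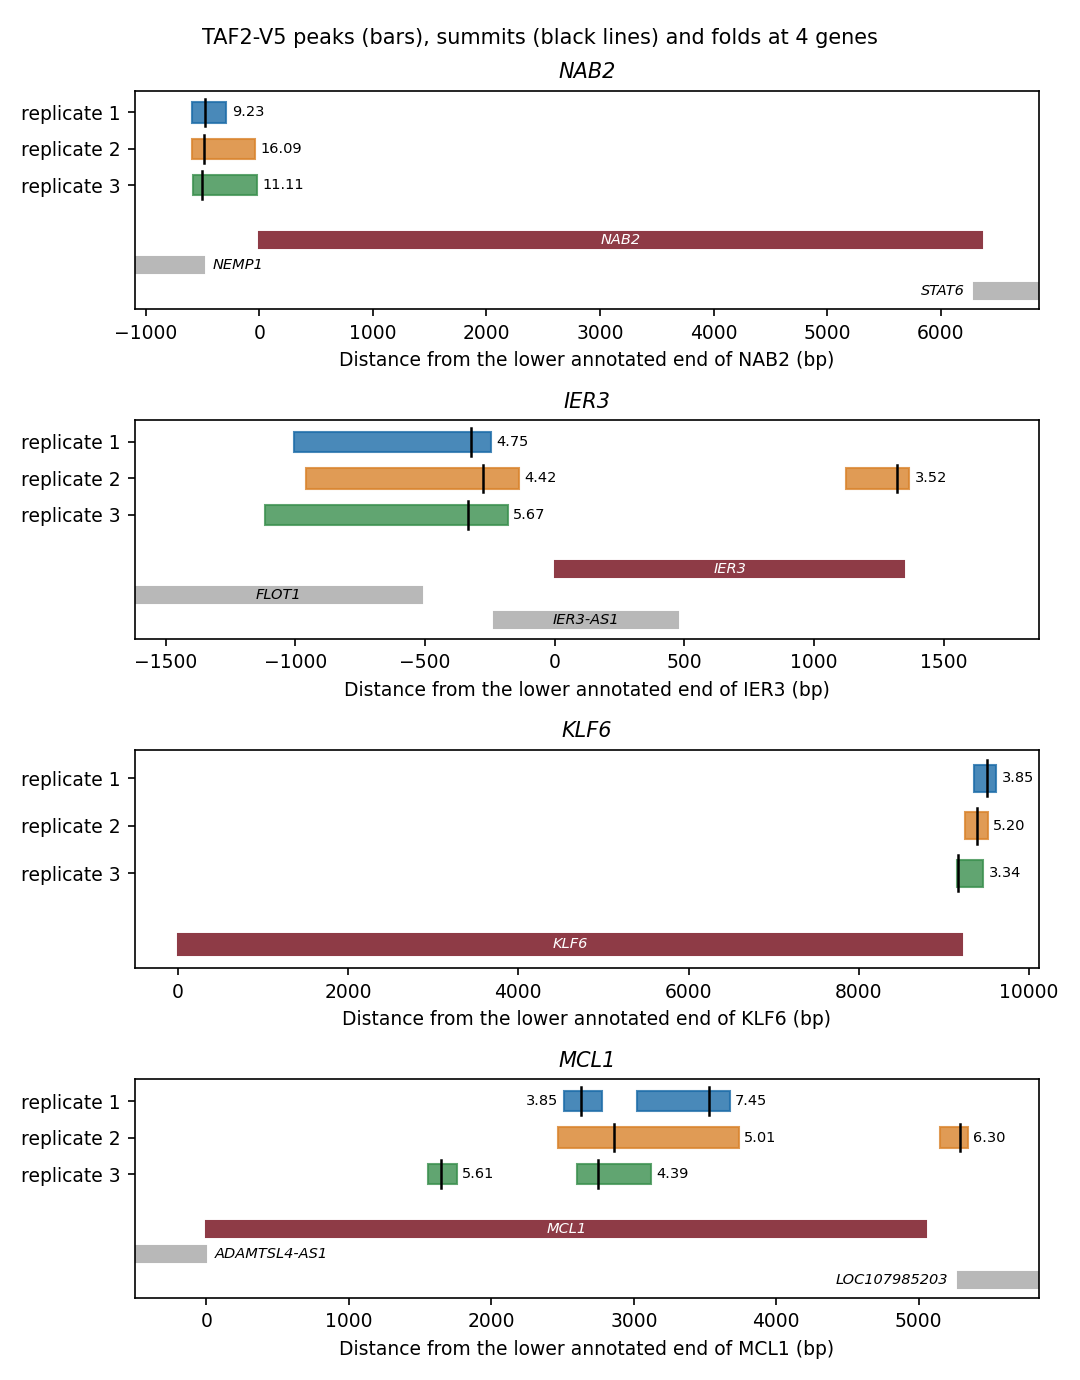
Peaks of each TAF2-V5 replicate at NAB2, IER3, KLF6 and MCL1, drawn to scale by distance in bp from the lower annotated end of the gene (horizontal axis), with a black line at the summit and the fold beside each peak. Gene spans are drawn below the peaks, with the member in red and its neighbours in grey. The NAB2 summits line up at the end of NEMP1, and the IER3 summits lie between FLOT1 and IER3-AS1.

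IER2, a nuclear growth factor response gene, had a peak in replicate 3 alone, beyond its 3′ end on chromosome 19 at 13154970 to 13155120. It had a fold of 4.89 and a −log10 q of 3.26 at percentile 43.5, with its summit 4646 bp after the start and 146 bp past the end of the gene. ATF3, a stress-induced repressor of the ATF/CREB family, had a peak in replicate 3 at 212608511 to 212608668 on chromosome 1 (fold 5.02, −log10 q 4.51, percentile 48.8). Its summit lay 43163 bp inside the span and 6448 bases before the second of the ATF3 starts in the promoter table. MYC, the growth-promoting transcription factor, had an internal peak in replicate 3 on chromosome 8 at 127737980 to 127738163, with a fold of 4.50 and a −log10 q of 2.51 (percentile 29.7). Ranked by −log10 q, the peaks of IER2, ATF3 and MYC stood at percentiles 25.1, 45.4 and 12.9. None of these 3 peaks lay within 1000 bp of another gene. Those of IER2 and ATF3 were not within 1000 bp of a listed start, and MYC had no listed start. In replicates 1 and 2 the nearest peak was 96.3 and 749 kb from IER2, 922 and 898 kb from ATF3, and 425 and 375 kb from MYC.

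JUN and FOS, whose products pair as the AP-1 transcription factor, had no peak in any library. The nearest peaks to JUN were 101, 27.6 and 101 kb away in replicates 1, 2 and 3, and those to FOS 1259, 366 and 1507 kb. EGR1, a zinc finger factor and the partner of NAB2, had its nearest peak 1221 bp before its start in replicate 2, just outside the 1000 bp limit, with a fold of 5.79 and a −log10 q of 5.14 (percentile 64.5). In replicates 1 and 3 the nearest peak was 59.1 and 805 kb from EGR1. The absence of a peak says that the authors' caller listed none, and at unknown depth it sets no limit on binding. KLF6 also had a peak just outside the limit, 1034 bp beyond its start in replicate 2 (fold 4.30). The farthest peak edge inside the limit was at NAB2, 290 bp from the gene in replicate 1.

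Beyond the 10 genes, 84 other immediate early and fast feedback genes were listed. Among them 11 had a peak in at least 2 libraries (13.1%, against 3.76% of all protein-coding genes) and 7 in all 3 libraries (8.33%, against 1.9%). Peaks in any library were found at 24 (28.6%, against 8.67% of all genes). The other 60 had none, including FOSB, FOSL1, FOSL2, JUNB, EGR2, EGR3, EGR4, DUSP1, BTG2 and ZFP36. In replicates 1, 2 and 3 the counts were 12, 13 and 17 (14.3%, 15.5% and 20.2%, against 3.7%, 5.75% and 4.87% of all genes). Without replicate 3, 7 had a peak in both remaining libraries. The share of all genes under that stricter rule was not computed, so 3.76% is not its background.

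Of the 7 genes with peaks in all 3 libraries, ERRFI1, an inhibitor of the EGF receptor, had the highest mean percentile, at 97.6 ± 3.06 (SD, n = 3) with 5, 6 and 6 peaks over the gene in replicates 1, 2 and 3. NFKBIA, the inhibitor of NF-κB, followed at 84.0 ± 15.1. Its strongest peak lay 705, 787 and 730 bases after the start with folds of 6.53, 6.01 and 11.4. ID2 and ID1, inhibitors of basic helix-loop-helix factors, had mean percentiles of 80.3 ± 6.74 and 76.9 ± 12.8 (SD, n = 3 each). The strongest ID1 peaks did not overlap between libraries, and that of replicate 2 lay within 1000 bp of the noncoding RNA gene LOC105372588. At ID2 a summit lay 17 bases after, 1 base before and 26 bases after the start in replicates 1, 2 and 3, with folds of 4.88, 7.30 and 5.87. The peak that counts for the mean in replicate 1 was another one, with a fold of 6.30 and its summit 1846 bases after the start. PHLDA1, a pleckstrin homology-like domain gene, had 70.6 ± 15.0, and SPRY4, an inhibitor of receptor tyrosine kinase signalling, had 64.9 ± 11.5 (SD, n = 3 each). The strongest SPRY4 peaks did not overlap between libraries. PIM1, a serine/threonine kinase gene, had 57.2 ± 27.8 (SD, n = 3) over its strongest peaks. That of replicate 2 was internal, with its summit 1990 bases after the start and a fold of 5.42. The PIM1 peaks nearest the start had summits 107, 21 and 514 bases before it in replicates 1, 2 and 3, with folds of 4.39, 4.07 and 6.64. That of replicate 3 stopped 330 bases before the start and did not overlap those of replicates 1 and 2.

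The remaining 4 genes had peaks in 2 libraries. TRIB1, a pseudokinase gene, had folds of 4.81 and 6.40 in replicates 1 and 3, and ZFP36L2 had 4.41 and 4.11. ZFP36L1, which like ZFP36L2 encodes a protein that promotes decay of AU-rich mRNAs, had 4.05 and 5.95. KLF10, a TGF-β-inducible factor gene, had folds of 3.41 and 3.80 in replicates 2 and 3. At ZFP36L1 and ZFP36L2 the peaks of the libraries did not overlap.

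**Figure D4:**
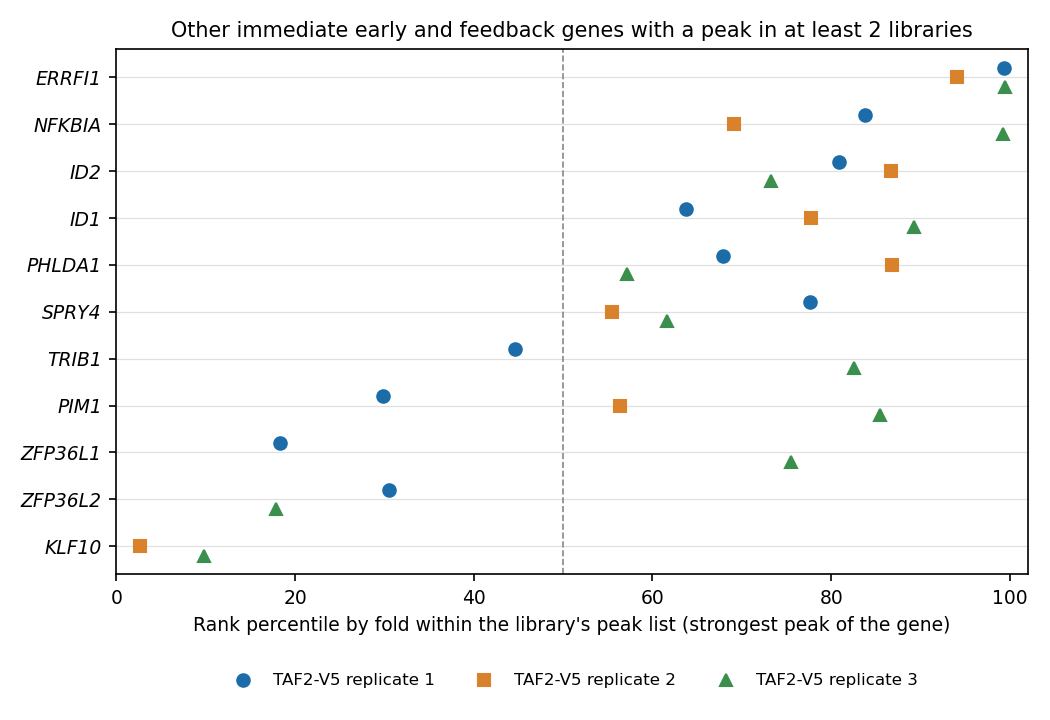
Rank percentile by fold within each library's list (horizontal axis) of the strongest peak at the 11 other immediate early and feedback genes with a peak in at least 2 libraries (rows), with a marker for each TAF2-V5 replicate and a dashed line at the list median. ERRFI1 is at or above percentile 94.0 in each library, and KLF10 stays below 10.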

How the data were processed

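Per the labels, chromatin was immunoprecipitated with V5 antibody, libraries were made with a NEBNext Ultra II kit, and the build was GRCh38. No source used here gives the aligner, the peak caller, its cutoff or the control used in calling. The deposited narrowPeak lists give for each peak the authors' fold (a linear ratio), −log10 p and −log10 q. The deposited score was the −log10 q times 10 without its decimals and was left aside. Folds ranked peaks within a list, and a fold of at least 5 served as a stricter cutoff in every list.

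Spans came from the RefSeq gene table and strands, starts and sequences from the RefSeq promoter table, both GRCh38.p14. A gene is named when it is a member, or is on the second list with peaks in at least 2 libraries. Some others were chosen after seeing their values. The members and lists were chosen with earlier results of these data known, so no test was made. Alternatives were other windows, stricter peaks, gene ends, summits, overlapping peaks and each replicate left out. On simulated peaks, all 100 genes given a peak 500 bp beyond their end were recovered among 19987. The 1000 bp rule fixes that outcome, so it checks the counting and does not measure sensitivity. Python 3.11.15, numpy 2.4.6, pandas 2.3.3 and matplotlib 3.10.9 were used.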

Additional observations from a re-analysis of the deposited data

How the results depend on the processing

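With windows of 2000 and 5000 bp the count of the 10 genes in at least 2 libraries stayed at 4 (NAB2, KLF6, IER3 and MCL1). The shares of all genes with those windows were 3.95% and 4.38%. The summit in place of the peak, and overlapping peaks between libraries, also left the count at 4. Without a window the count was 1 (MCL1, against 3.25% of all genes), also 1 in all 3 libraries, and 1, 2 and 4 in replicates 1, 2 and 3. With ends only, replicate 3 had 4 of the 10 genes (against 2.43% of all genes), and 6 of the 84 other genes were in at least 2 libraries (against 1.37%). With a −log10 q of at least 5 the 10 genes gave 3 in at least 2 libraries (against 1.91% of all genes), 3 in any library, 2 in all 3 libraries and 2 in replicate 3, and the other genes 7. With a fold of at least 5 they gave 2 in at least 2 libraries (MCL1 and NAB2, against 2.04% of all genes), 2 in all 3 libraries, 2 in replicate 1 and 4 in replicate 3, and the other genes 7. Leaving out each replicate in turn left the count in both remaining libraries at 4. That outcome was fixed, since 4 members had peaks in all 3 libraries and 0 had them in exactly 2. The count in any library ran from 4 (without replicate 3) to 7, and that of the other genes in at least 2 libraries from 7 (without replicate 3) to 10. The share of all genes was 3.76%, and 1.85% for spans of at most 10000 bp, a comparison chosen after seeing the data. For the counts with summits or overlapping peaks, no share of all genes was computed. The same holds for the other counts without a window, with stricter peaks or with a replicate left out, which therefore have no background. Ranked by −log10 q, percentiles changed most at IER3 (80.9), and were 64.8 at MCL1, 25.1 at IER2 and 12.9 at MYC. No paired analysis was possible because the control libraries come without peak lists. Depth is unknown, so weak peaks near the authors' threshold may be missed.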

Other observations

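Among the other immediate early and feedback genes with a peak in 1 library, several peaks lay at the start of the gene. The genes named here were picked after their values were seen. The start peaks of SPRED2 and MAFF had no other annotated gene within 1000 bp. That of SPRED2 was in replicate 2, with a fold of 3.93 and its summit 136 bases before a start. That of MAFF was in replicate 3, with a fold of 5.45 and its summit 361 bases before a start. Each of the genes that follow had another annotated gene within 1000 bp of its peak. IER5, a relative of IER2, had a peak in replicate 3 with a fold of 7.36 (percentile 91.3) and its summit 46 bases before the start, near LOC124904465. CEBPB, a liver transcription factor gene, had one in replicate 3 with a fold of 4.55 and the summit 109 bases before the start, near CEBPB-AS1. CSRNP1, a nuclear protein gene, had one in replicate 3 with a fold of 6.36 and the summit 179 bases before a start, near LOC101928263. CCN2, a matricellular growth factor gene, had one in replicate 2 with a fold of 5.62 and the summit 122 bases before the start, near CCN2-AS1. DUSP6, an ERK phosphatase gene, had one in replicate 1 with a fold of 3.79 and the summit 181 bases before the start, near the readthrough gene POC1B-DUSP6. Of the 13 genes with a peak in 1 library (15.5% of the list, against 4.91% of all genes), 2 had it in replicate 1, 5 in replicate 2 and 6 in replicate 3. These were 2.38%, 5.95% and 7.14% of the list, against 0.856%, 2.36% and 1.7% of all genes.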
